A study of Homo sapiens with 12 samples.

Results

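Described here are 10 genes of the integrated stress response and the unfolded protein response in HEK293T cells that received a plasmid carrying a trigger for microRNA decay. They are the transcription factors ATF4, DDIT3 and XBP1, the amino acid and glutathione enzymes ASNS and CHAC1, the feedback regulators TRIB3 and PPP1R15A, the growth regulators DDIT4 and SESN2, and the degradation factor HERPUD1. They were picked by gene name from 61321 gene symbols in the poly-A RNA tables. No cut on their values was used, but earlier results of these data were known. The 10 genes stand under 11 of 67053 gene IDs because SESN2 has 2. All 10 passed the filter on low values that 15183 gene IDs passed. HEK293T is a human embryonic kidney line that carries the SV40 large T antigen.

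The cells received a GFP reporter plasmid in 3 forms, with the BCL2L11 trigger in the 3′ untranslated region of the reporter, with the TRIM9 trigger there, or as the GFP control. Each trigger is a stretch of RNA that pairs extensively with a microRNA and sends it to decay, miR-221 and miR-222 for BCL2L11 and miR-218 for TRIM9. All 3 groups were transfected with 2 µg of plasmid and lysed 48 h later, by polyethylenimine or lipofectamine; no label says which culture had which reagent. Each group had 2 poly-A libraries, given as biological replicates. All cultures had received a plasmid, and an untransfected culture was not analysed here.

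The integrated stress response joins several kinases that phosphorylate the translation factor eIF2 when a cell lacks amino acids, meets viral RNA or oxidative damage, or accumulates unfolded protein in the endoplasmic reticulum (ER). General translation then slows while the ATF4 message is translated more, and ATF4 protein switches on genes for amino acid supply, feedback and, through DDIT3, cell death. The unfolded protein response adds the ER sensors IRE1 and ATF6, and IRE1 cuts a short intron out of XBP1 mRNA in the cytoplasm. Poly-A RNA shows the messages of this network, not the translation of ATF4 or the phosphorylation of eIF2.

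Matches to the known DNA elements of this network are shown for the members whose promoter window holds one, because ATF4 and the ER factors are known to work through such elements. RefSeq windows of 300 bases (250 before and 50 after each annotated start, GRCh38.p14) were found for all 10 members and searched on both strands for 5 motifs. Those motifs were the C/EBP-ATF element TGATGNAA, the cyclic AMP response element TGACGTCA, the ER stress elements ERSE and ERSE-II, and the unfolded protein response element TGACGTGG. At least 1 of them stood in a window of 5 members. The 10 members had 16 windows in all, and the share of all genes with any of the 5 motifs was not computed. Each line below reads 5′ to 3′ on the strand of the gene, and capitals mark the match.
ASNS, C/EBP-ATF element, chr7:97872458-97872487, minus strand: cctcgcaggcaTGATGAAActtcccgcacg
CHAC1, C/EBP-ATF element as its reverse complement, chr15:40953251-40953280, plus strand: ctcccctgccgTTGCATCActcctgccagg
HERPUD1, C/EBP-ATF element as its reverse complement, chr16:56931955-56931984, plus strand: gacgcggcgggTTGCATCAgcccgtgccca
HERPUD1, ERSE-II, chr16:56932016-56932045, plus strand: cggacgccgATTGGGCCACGttgggagagt
PPP1R15A, cyclic AMP response element, chr19:48872352-48872381, plus strand: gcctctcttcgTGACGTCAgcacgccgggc
XBP1, ERSE, chr22:28800597-28800626, minus strand: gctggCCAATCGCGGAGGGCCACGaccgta

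Measured from the RefSeq start, these matches began at -68 in ASNS, -209 in CHAC1, -176 and -117 in HERPUD1, -58 in PPP1R15A and -52 in XBP1. The ASNS and CHAC1 stretches lie inside the span of a longer deposited transcript model of the same gene. Of 35116 promoter windows in the table, 3.62% held the C/EBP-ATF element, 1.85% the cyclic AMP response element, 0.0769% ERSE and 0.0541% ERSE-II. The unfolded protein response element was in 0.729% of the windows and in 0 members. These shares count windows, whereas the members are counted as genes, 3 of them for the C/EBP-ATF element. A match describes these letters only, and binding was not measured.

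All levels below are FPKM, fragments scaled to transcript length and to the library's total, summed over the transcript models of a gene. Differences are log2 fold changes of FPKM plus 1 from limma, with p-values adjusted by Benjamini-Hochberg over the 15183 genes and called under 0.05. All 6 libraries set the error together, so p-values measure the spread between these libraries within their groups. By mean FPKM the members ran from ATF4 at 520 through XBP1 at 123, ASNS at 99.1, DDIT4 at 56.8, PPP1R15A at 28.9, HERPUD1 at 24.9, DDIT3 at 24.5, SESN2 at 17.7 and TRIB3 at 12.1 to CHAC1 at 6.89. ATF4 exceeded 99.2% of the genes tested, and CHAC1 exceeded 52.5%. In that order the library ranges of ATF4 and XBP1, and of TRIB3 and CHAC1, did not overlap, while those of all other neighbours did. Read coverage behind these levels was lowest for CHAC1, at 16.5 to 50.5 reads per base, and highest for ATF4, at 1806 to 3887. In bulk RNA of this kind, fewer cells with a message and less RNA per cell cannot be told apart.

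Across the series the 6 poly-A libraries had 83584 to 110534 of 250719 transcript models above 0, with GFP replicate 1 the lowest. None of the 15 library pairs held identical values (0 of 15). Of the markers of HEK293 cells, VIM stood at 368 to 500 FPKM and IRS4 at 8.61 to 80.3. The blood genes PTPRC, CD3E and HBB were at 0 in every library, while HBA1 stood at 2.35 to 7.45. Of 5 epithelial markers 4 reached 1 FPKM in any library, with KRT18 at 18.3 to 45.3 and KRT8 at 6.98 to 14.2. The keratin KRT19 was at 0 in every library. In total the 6 fibroblast markers, of which 3 reached 1 FPKM in any library, summed to 2.26 to 7.63 FPKM in BCL2L11 libraries and 2.56 to 3.30 in TRIM9 libraries, against 1.57 to 2.099 in GFP libraries. The part of these cells or of depth in any member's value was not tested.

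No member's difference between groups passed the test, which takes the spread of the 6 libraries around their group means as its error. With the BCL2L11 trigger 0 of 10 members were called against GFP, with the TRIM9 trigger 0 of 10, and between the triggers 0 of 10. The background was 0.00659% of all genes called for BCL2L11 against GFP (1 of 15183), 0.00659% for TRIM9 against GFP (1 of 15183) and 0.0132% for BCL2L11 against TRIM9 (2 of 15183). Unadjusted p under 0.05 was reached by 0 members in each of the 3 comparisons, against 83, 175 and 98 of all genes. The lowest unadjusted p was 0.170 for CHAC1 with BCL2L11 against GFP, 0.0885 for DDIT4 with TRIM9 against GFP and 0.154 for PPP1R15A between the triggers (limma, n = 2 libraries per group; adjusted p was 0.9999 or 1.0 for every member). In each comparison 4 members had a positive and 6 a negative difference. Their median log2 difference was -0.20, -0.06 and -0.12, beside -0.08, -0.04 and -0.04 over all genes. Both trigger groups were set against the same 2 GFP libraries, so these comparisons are not independent of each other. Taken within replicate 1 and within replicate 2, the difference kept 1 sign for 5 of 10 members with BCL2L11 against GFP, for 6 of 10 with TRIM9 against GFP and for 10 of 10 with BCL2L11 against TRIM9. The share of all genes that kept 1 sign was not computed, so these counts have no background. Over all genes the replicate differences of BCL2L11 and TRIM9 correlated at 0.83, beside 0.58 (BCL2L11) and 0.49 (TRIM9) with those of GFP. A term for the title numbers, described further on, removes the spread between replicates 1 and 2 that the groups share, and with it 0 members were called (lowest adjusted p = 0.765 in limma, for DDIT3 with TRIM9 against GFP).

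**Figure D1:**
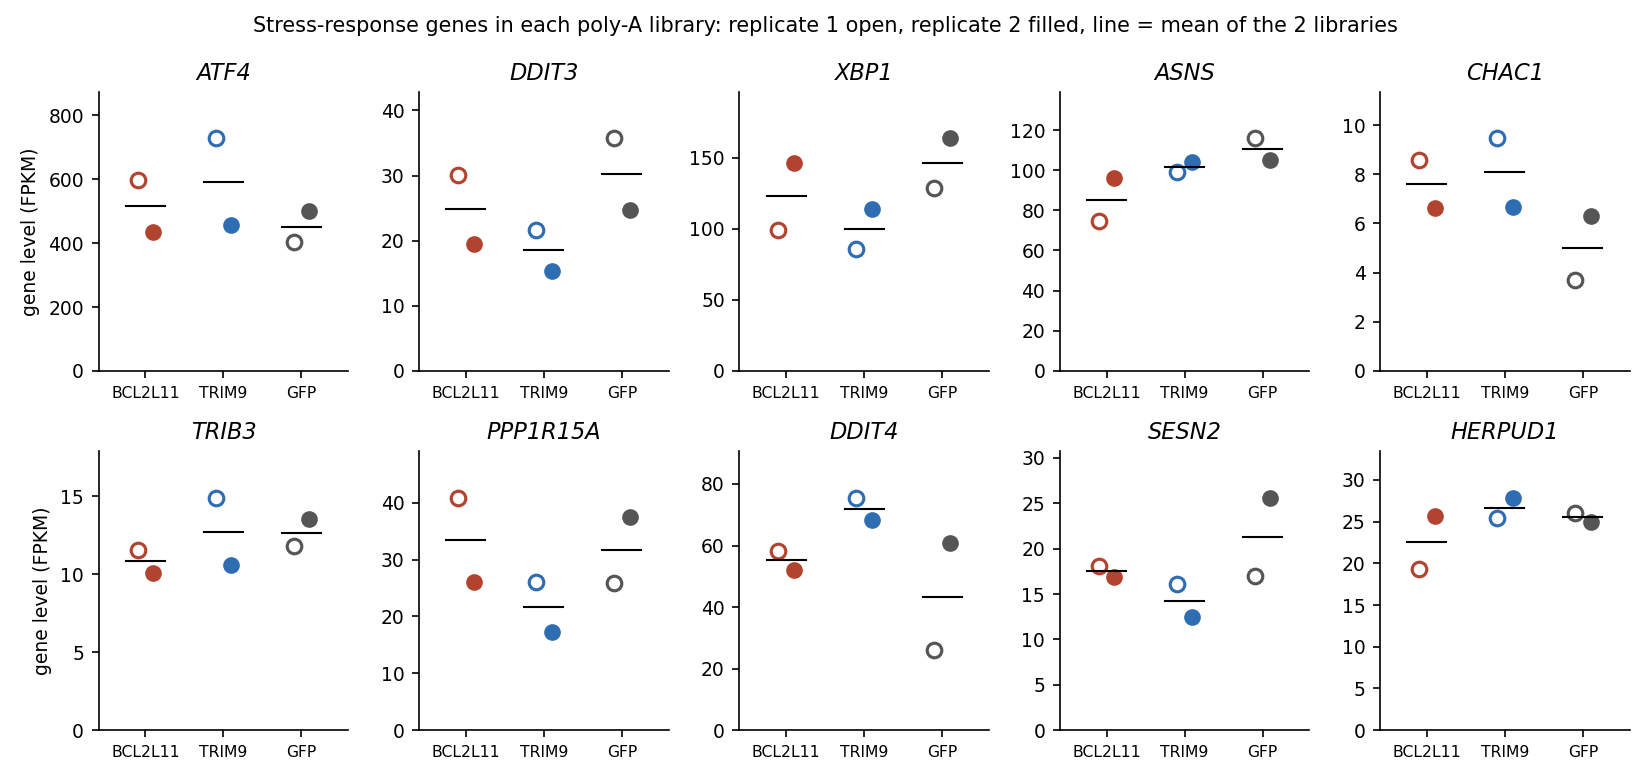
FPKM of the 10 members in each poly-A library, 1 panel per gene with its own axis from 0. Open circles are replicate 1, filled circles replicate 2 and lines the mean of the 2 libraries. CHAC1 and DDIT4 sit lowest in GFP replicate 1, and DDIT3 and XBP1 sit lower in both TRIM9 libraries than in both GFP libraries.

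A looser view counts the members whose libraries did not overlap between groups. With BCL2L11 against GFP these were 3 of 10, where 16.7% of all genes did not overlap. CHAC1 was the higher one, and ASNS and TRIB3 were the lower ones. With TRIM9 against GFP they were 6 of 10, where 17.8% of all genes did not overlap. CHAC1 and DDIT4 were higher there, and DDIT3, XBP1, ASNS and SESN2 were lower. Between BCL2L11 and TRIM9 they were 3 of 10, beside 14.2% of all genes, with SESN2 higher and ASNS and DDIT4 lower in BCL2L11. None of these differences passed the test across all genes. Some gaps were narrow. The nearest libraries stood at 104.1 (TRIM9) and 104.9 FPKM (GFP) for ASNS, and at 6.69 (TRIM9) and 6.30 (GFP) for CHAC1. For TRIB3 they stood at 11.54 (BCL2L11) and 11.78 (GFP). These counts used FPKM without TMM scaling, and whether they hold under other scaling was not tested.

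ATF4, the hub of the response, had 599 and 434 FPKM in BCL2L11 libraries, 728 and 457.5 in TRIM9 libraries, and 403 and 501 in GFP libraries. The highest library was a TRIM9 one and the lowest a GFP one, and the groups overlapped. The log2 difference from GFP was 0.18 (SE 0.41) for BCL2L11 and 0.36 (SE 0.41) for TRIM9, with 95% intervals of -0.79 to 1.15 and -0.61 to 1.33. For TRIM9 the value was 0.026 without TRIM9 replicate 1, 0.20 without GFP replicate 1, 0.52 without GFP replicate 2 and 0.70 without TRIM9 replicate 2. Part of the level came from a model of 180 bases, ENST00000676430.1, with 0.350% and 21.1% of ATF4 FPKM in BCL2L11 libraries, 17.3% and 17.6% in TRIM9 libraries, and 0.00372% and 23.7% in GFP libraries. Summed over models of at least 200 bases, a choice made after this was seen, ATF4 stood at 597 and 342 FPKM in BCL2L11 libraries, 602 and 377 in TRIM9 libraries, and 403 and 382 in GFP libraries. On that sum all 3 replicate 2 libraries lay below all 3 replicate 1 libraries.

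DDIT3 encodes CHOP, the ATF4 partner and target tied to cell death under lasting stress. Its level was 30.1 and 19.5 FPKM in BCL2L11 libraries, 21.7 and 15.4 in TRIM9 libraries, and 35.7 and 24.7 in GFP libraries. Both TRIM9 libraries lay below both GFP libraries, while BCL2L11 overlapped GFP. The log2 difference was -0.67 (SE 0.36, 95% interval -1.53 to 0.18) for TRIM9 against GFP and -0.28 (SE 0.36) for BCL2L11 against GFP. For TRIM9 it was -0.69 between the replicate 1 libraries and -0.65 between the replicate 2 libraries. DDIT3 overlaps MARS1 on the opposite strand over 982 bases, and MARS1, a tRNA synthetase gene, stood at 95.5 to 121 FPKM. Whether the counting used strand was not stated, so reads of DDIT3, MARS1 and MBD6, which also overlaps it, may have been mixed.

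XBP1 encodes the transcription factor that IRE1 activates by splicing. It had 99.5 and 146 FPKM in BCL2L11 libraries, 86.1 and 114 in TRIM9 libraries, and 129 and 164 in GFP libraries. Both TRIM9 libraries were below both GFP libraries, with a log2 difference of -0.55 (SE 0.35, 95% interval -1.38 to 0.28). With BCL2L11 the groups overlapped, and the difference was -0.27 (SE 0.35). These XBP1 totals include spliced and unspliced forms alike.

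The deposited transcript models allowed both forms of XBP1 to be looked at. The model of 1131 bases and 6 exons, ENST00000344347.5, was set beside the full model of 1850 bases and 5 exons, ENST00000216037.10. Beside trimmed ends it lacks 26 bases, the length of the intron that IRE1 removes. It was taken as the spliced form from lengths and exon numbers, and the position of the 26 bases was not examined. A second spliced model, ENST00000611155.4, was at 0 in every library. The spliced share of XBP1 FPKM was 16.4% and 45.0% in BCL2L11 libraries, 25.4% and 44.3% in TRIM9 libraries, and 12.8% and 54.4% in GFP libraries. Group means were 30.7% ± 20.3 for BCL2L11, 34.9% ± 13.4 for TRIM9 and 33.6% ± 29.4 for GFP (SD, n = 2 each), so the means lay well within the spread of the replicates. No test was made, since with 2 libraries in either group the smallest p of an exact permutation test is 0.333. In spliced FPKM the values were 16.3 and 65.8 in BCL2L11 libraries, 21.9 and 50.4 in TRIM9 libraries, and 16.6 and 89.0 in GFP libraries. In each of the 3 groups replicate 2 was the higher library. The spliced model also lacks part of the 3′ end, and which reads separated the models was not analysed here, so these shares are estimates of StringTie rather than counts of spliced junctions.

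**Figure D2:**
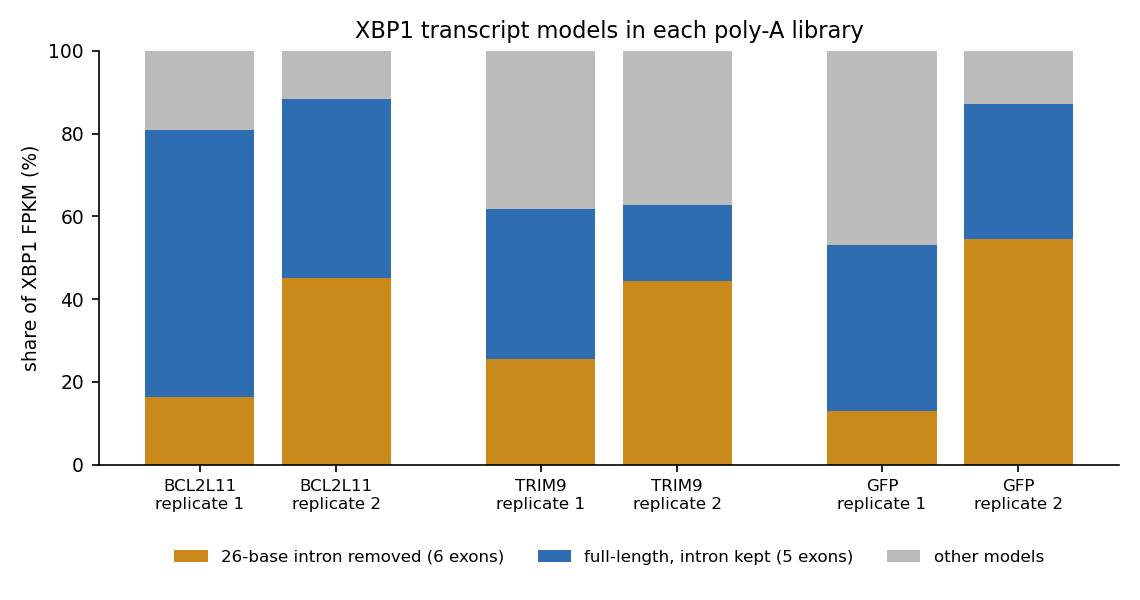
Share of XBP1 FPKM (%) held by 3 classes of models in each poly-A library. The classes are models taken by length to lack the 26-base intron, the full-length model that keeps it, and other models. The spliced share is 44.3% to 54.4% in the 3 replicate 2 libraries and 12.8% to 25.4% in the 3 replicate 1 libraries, whichever plasmid was used.

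Of the enzymes, ASNS makes asparagine and is a classic ATF4 target of amino acid shortage. ASNS stood at 74.5 and 96.1 FPKM in BCL2L11 libraries, 99.1 and 104 in TRIM9 libraries, and 116 and 105 in GFP libraries. Both trigger groups lay below GFP in all their libraries, by a log2 difference of -0.38 (SE 0.30) for BCL2L11 and -0.12 (SE 0.30) for TRIM9. Within replicate 2 the TRIM9 difference of ASNS was -0.01.

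CHAC1 breaks down glutathione and is among the genes most tightly bound to the ATF4 branch. Its FPKM was 8.57 and 6.64 in BCL2L11 libraries, 9.46 and 6.69 in TRIM9 libraries, and 3.69 and 6.30 in GFP libraries. Both trigger groups were above GFP in all their libraries, at 1.46 times (BCL2L11) and 1.53 times (TRIM9) on the FPKM plus 1 scale. The log2 differences were 0.55 (SE 0.36, 95% interval -0.30 to 1.40) and 0.62 (SE 0.36, 95% interval -0.23 to 1.46). Within replicate 1 they were 1.03 and 1.16, and within replicate 2 they were 0.07 and 0.08, though the labels give no such pairing. Without GFP replicate 1, the lowest library, the values were smaller but still positive, at 0.23 for BCL2L11 and 0.30 for TRIM9. CHAC1 and ASNS, both ATF4 targets with a C/EBP-ATF element in their promoter window, had estimates of opposite sign. Neither gene passed the test, and every interval includes 0.

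TRIB3, a pseudokinase that ATF4 and CHOP induce and that restrains them in turn, had 11.5 and 10.1 FPKM in BCL2L11 libraries, 14.9 and 10.6 in TRIM9 libraries, and 11.8 and 13.5 in GFP libraries. BCL2L11 lay just below GFP (log2 difference -0.21, SE 0.31), and TRIM9 spanned the GFP values (-0.01, SE 0.31). PPP1R15A, or GADD34, brings a phosphatase to eIF2 and ends the response. Its level was 40.9 and 26.1 FPKM in BCL2L11 libraries, 26.1 and 17.2 in TRIM9 libraries, and 25.8 and 37.5 in GFP libraries. PPP1R15A had the widest gap between the triggers, with a log2 difference of 0.60 (SE 0.38, 95% interval -0.29 to 1.49) for BCL2L11 against TRIM9. That gap was 0.63 within replicate 1 and 0.58 within replicate 2. It was 0.29 without BCL2L11 replicate 1, 0.31 without TRIM9 replicate 2, 0.91 without BCL2L11 replicate 2 and 0.89 without TRIM9 replicate 1. Against GFP the log2 difference of PPP1R15A was 0.07 (SE 0.38) for BCL2L11 and -0.53 (SE 0.38) for TRIM9. Its sign turned between replicates 1 and 2 for both, at 0.64 and -0.51 for BCL2L11 and 0.01 and -1.08 for TRIM9.

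DDIT4, or REDD1, lowers mTORC1 signalling under hypoxia, glucocorticoids and ER stress. It stood at 58.3 and 52.2 FPKM in BCL2L11 libraries, 75.5 and 68.15 in TRIM9 libraries, and 25.95 and 60.7 in GFP libraries. Its highest library was 2.91 times its lowest, the widest ratio of the 10 members. Both TRIM9 libraries lay above all others, and the 2 GFP libraries lay far apart. For TRIM9 against GFP the log2 difference was 0.83 (SE 0.42, 95% interval -0.16 to 1.83), and for BCL2L11 against GFP it was 0.46 (SE 0.42, 95% interval -0.54 to 1.46). Without GFP replicate 1 these DDIT4 values were 0.24 and -0.14, and without GFP replicate 2 they were 1.43 and 1.06. The size of the DDIT4 difference, and for BCL2L11 its sign, thus depended on which GFP library was kept.

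DDIT4 has been reported as a target of miR-221, one of the microRNAs that the BCL2L11 trigger pairs with. In the small RNA libraries miR-221-3p was at 1959 and 1803 RPM (reads scaled to equal library totals) in BCL2L11 cells and 5733 and 3831 in TRIM9 cells, against 4198 and 4745 in GFP cells. For miR-222-3p the values were 2701 and 2832 in BCL2L11 cells and 5603 and 4545 in TRIM9 cells, against 4151 and 4789 in GFP cells. The group with the least miR-221-3p, BCL2L11, had DDIT4 levels between the 2 GFP libraries, and TRIM9, whose miR-221-3p straddled GFP, had the highest DDIT4. The labels do not say that small RNA and poly-A libraries came from the same culture, and no test was made of the pair.

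SESN2, a leucine sensor that restrains mTORC1, had 18.1 and 16.9 FPKM in BCL2L11 libraries, 16.1 and 12.4 in TRIM9 libraries, and 17.04 and 25.6 in GFP libraries. Both TRIM9 libraries were the lowest of the 6, with a log2 difference from GFP of -0.53 (SE 0.32, 95% interval -1.29 to 0.23). For BCL2L11 it was -0.24 (SE 0.32). SESN2 and DDIT4, both brakes on mTORC1, thus had differences of opposite sign in TRIM9 cells, neither past the test. The second SESN2 gene ID, on an alternate scaffold, held the same values in every library, so how reads were shared between the copies is uncertain.

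HERPUD1 sits in the ER membrane and helps to pull misfolded proteins out for degradation, and its promoter window holds both an ATF4-type and an ER stress element. Its FPKM was 19.4 and 25.7 in BCL2L11 libraries, 25.4 and 27.9 in TRIM9 libraries, and 26.02 and 25 in GFP libraries. It varied least of the members, with the highest library at 1.44 times the lowest, and all groups overlapped. The log2 difference was -0.18 (SE 0.29) for BCL2L11 and 0.06 (SE 0.29) for TRIM9. Beneath this even total the split among 19 models differed between libraries. ENST00000439977.7 held 48.9% and 12.2% of HERPUD1 FPKM in BCL2L11 libraries, 6.61% and 15.2% in TRIM9 libraries, and 75.9% and 66.5% in GFP libraries, so both GFP libraries lay above all 4 trigger libraries. ENST00000300302.9 held 11.2% and 30.9% in BCL2L11 libraries, 61.8% and 32.4% in TRIM9 libraries, and 0 and 13.6% in GFP libraries, with both TRIM9 libraries the highest. Taken alone, ENST00000439977.7 had log2 differences of -1.54 for BCL2L11 and -2.35 for TRIM9 against GFP (adjusted p = 0.9999 for both, limma). These 2 models have 8 exons each, and which reads told them apart was not analysed here. The share of all transcript models whose libraries separate between groups in this way was not computed, so these separations have no background. Splits also differed within a group, as for the ATF4 model ENST00000674920.1, at 71.3% and 37.3% of ATF4 FPKM in GFP libraries. For TRIB3, DDIT4, SESN2, PPP1R15A and CHAC1, a single model held at least 88.4% in every library.

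**Figure D3:**
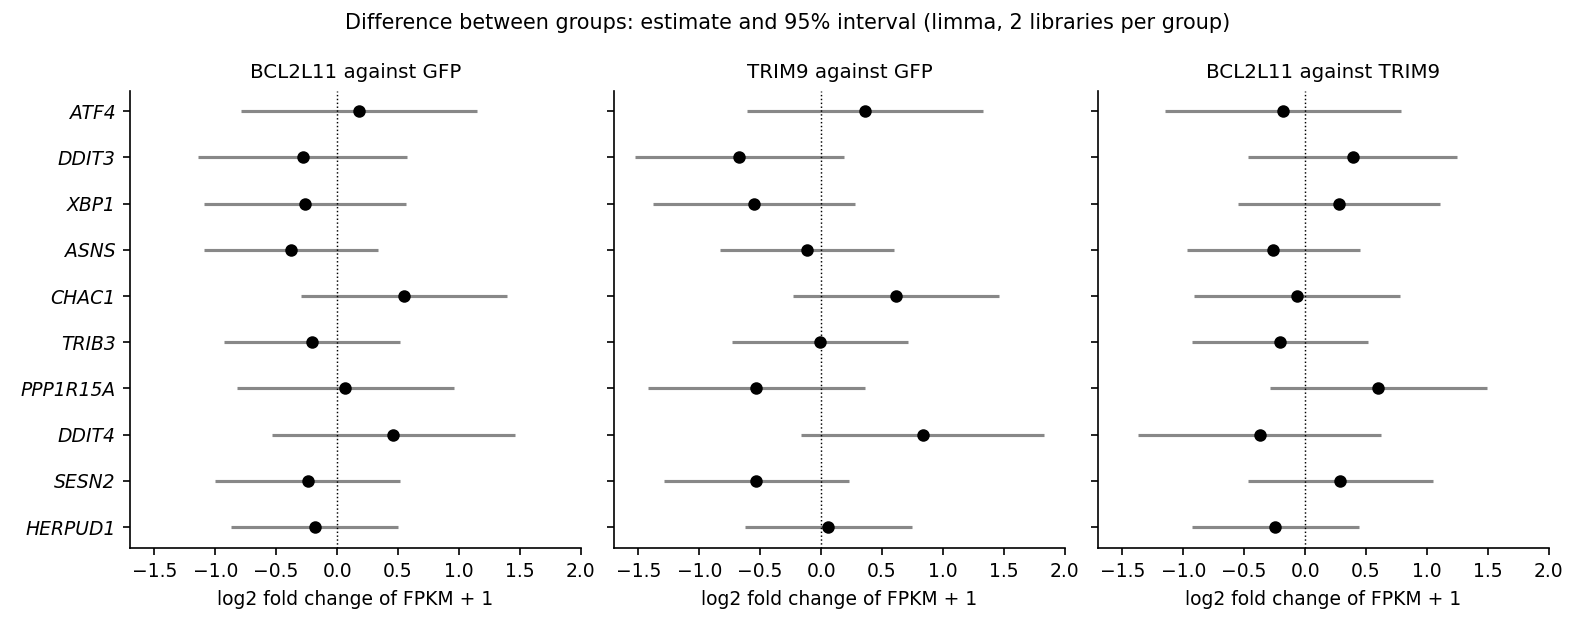
Log2 fold change of FPKM plus 1 for each member in the 3 comparisons, with points for the limma estimate and lines for the 95% interval. Every interval includes 0, and the estimates reach 0.83 for DDIT4 and -0.67 for DDIT3 with TRIM9 against GFP.

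The intervals also show how large a difference these libraries could have missed. The standard error of a member's log2 difference was 0.36 in the middle of the 10. With TRIM9 against GFP the intervals of DDIT4, DDIT3, CHAC1, ATF4, XBP1, SESN2 and PPP1R15A reach beyond 1 on the log2 scale, upward or downward. These data therefore do not show that the members were at equal levels in the groups. For HERPUD1, the narrowest case, the interval ran from -0.87 to 0.50 for BCL2L11 and from -0.63 to 0.74 for TRIM9.

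The rest of the network was described with 7 lists of genes upstream of the members, beside them or below them. In each comparison of the 3 groups 0 genes of any list were called. Among 17 sensors and regulators of eIF2, the differences from GFP were negative for 15 with BCL2L11 (median -0.25) and for 16 with TRIM9 (median -0.15), beside medians of -0.08 and -0.04 over all genes. Members of that list with the lowest p were ERN1, the gene of IRE1, with a log2 difference of -0.51 (SE 0.34) for BCL2L11 against GFP, and EIF2S1, the phosphorylated subunit of eIF2, with -0.56 (SE 0.31) for TRIM9 against GFP. EIF2S1 stood at 24.3 and 31.5 FPKM in BCL2L11 libraries, 19.9 and 28.0 in TRIM9 libraries, and 33.8 and 36.7 in GFP libraries. For the counts of negative differences in this and the following lists, the share over all genes was not computed. Such counts depend on scaling. With TMM the difference of the member ASNS went from -0.38 to -0.28 for BCL2L11 and from -0.12 to -0.05 for TRIM9 against GFP.

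Among the 9 partner transcription factors, of which 8 were tested, ATF3 was the gene with unadjusted p under 0.05 in each comparison, and the other lists held 0 such genes. ATF3, an ATF4 target that binds many of the same promoters, had 79.2 and 80.8 FPKM in BCL2L11 libraries, 40.2 and 48.6 in TRIM9 libraries, and 123 and 141 in GFP libraries. The 3 groups did not overlap, and replicates lay close together. Its log2 difference was -0.71 (SE 0.29, unadjusted p = 0.0445) for BCL2L11 against GFP, -1.55 (SE 0.29, unadjusted p = 0.00106) for TRIM9 against GFP and 0.84 (SE 0.29, unadjusted p = 0.0232) for BCL2L11 against TRIM9. By limma with adjustment over all genes none of these was called (adjusted p = 0.9999, 0.9999 and 1.0). CEBPB, another partner of ATF4 and CHOP, had 17.1 and 20.3 FPKM in BCL2L11 libraries, 25.4 and 21.4 in TRIM9 libraries, and 8.63 and 21.5 in GFP libraries. As with CHAC1 and DDIT4, GFP replicate 1 was the low library for CEBPB.

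Target lists gave a similar picture. The 18 genes of amino acid synthesis and transport, led by PHGDH at a mean of 215.5 FPKM, SLC3A2 at 176 and PSAT1 at 107, had a median log2 difference of -0.11 for BCL2L11 and 0.01 for TRIM9 against GFP. The 13 genes of the tRNA synthetase list, which counts the tRNA exporter XPOT, were negative for 11 with BCL2L11 (median -0.11) and 10 with TRIM9 (median -0.09). Of 11 further ATF4 and CHOP targets, 9 were tested, and BBC3, the cell death gene PUMA, had 31.9 and 14.6 FPKM in BCL2L11 libraries, 22.1 and 8.57 in TRIM9 libraries, and 8.71 and 19.3 in GFP libraries. The BBC3 values thus ran opposite ways between replicates in the trigger groups and in GFP. GDF15, a stress hormone of the ATF4 branch, had its lowest libraries in TRIM9, at 9.998 and 6.89 FPKM, beside 14.7 and 11.4 in BCL2L11 and 11.35 and 11.03 in GFP libraries.

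On the ER side, 18 chaperone and folding genes had medians of 0.01 for BCL2L11 and -0.17 for TRIM9 against GFP. HSP90B1 averaged 233 FPKM, CALR 208 and HSPA5, the chaperone BiP that IRE1, PERK and ATF6 monitor, 140.3. HSPA5 kept within 124 to 157 FPKM over the 6 libraries. MANF, an ER stress factor that is secreted, reached 106 FPKM in BCL2L11 replicate 1 and 36.5 in BCL2L11 replicate 2, beside 54.8 and 29.2 in TRIM9 libraries and 49.6 and 40.7 in GFP libraries. The 11 tested genes of ER-associated degradation, out of 12, were negative for 8 with BCL2L11 (median -0.09) and for all 11 with TRIM9 (median -0.14), led by SELENOS at -0.34 (SE 0.36). The SELENOS libraries overlapped, at 43.3 and 28.2 FPKM in TRIM9 and 50.2 and 39.2 in GFP.

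A larger split ran across the groups. Library titles number the 6 samples, and the replicate 2 libraries are numbers 4 to 6 and the replicate 1 libraries numbers 1 to 3, while the labels name neither a pairing nor a batch. With group and title set in the same limma fit, 32.9% of all genes were called between numbers 4 to 6 and 1 to 3 (4991 of 15183), and 1 of 10 members was called. That member was DDIT3, which was lower in numbers 4 to 6, at 19.5 (BCL2L11), 15.4 (TRIM9) and 24.7 FPKM (GFP), than in numbers 1 to 3, at 30.1, 21.7 and 35.7 FPKM in the same order. Its log2 difference was -0.53 (SE 0.13, 95% interval -0.85 to -0.21, adjusted p = 0.0287 in limma), and it was -0.60 in BCL2L11, -0.47 in TRIM9 and -0.51 in GFP. The call of DDIT3 was lost without any 1 of the 4 trigger libraries (adjusted p = 0.278 without BCL2L11 replicate 1, 0.291 without BCL2L11 replicate 2, 0.135 without TRIM9 replicate 1 and 0.144 without TRIM9 replicate 2, limma). It was kept without GFP replicate 1 (0.0114) or GFP replicate 2 (0.0112), and without either of these 5 members were called. All genes called were 8178 without GFP replicate 1, 8130 without GFP replicate 2, 1593 and 1709 without BCL2L11 replicate 1 or 2, and 1474 and 1265 without TRIM9 replicate 1 or 2.

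XBP1 had the opposite sign, with a log2 difference of 0.43 (SE 0.13) between numbers 4 to 6 and 1 to 3. It missed the threshold (adjusted p = 0.0576 in limma), and without GFP replicate 1 or GFP replicate 2 it passed, at 0.0176 and 0.0174. XBP1 was higher in replicate 2 by 0.55 in BCL2L11, 0.40 in TRIM9 and 0.34 in GFP. ATF4, CHAC1, TRIB3, DDIT4, SESN2 and PPP1R15A behaved differently from both, being lower in replicate 2 in BCL2L11 and TRIM9 and higher in replicate 2 in GFP. For ATF4 this rests on the model of 180 bases, since over models of at least 200 bases its replicate 2 library was the lower one in GFP too (382 FPKM in replicate 2, 403 in replicate 1). ASNS and HERPUD1 showed the reverse, higher in replicate 2 in BCL2L11 and TRIM9 and lower in GFP, at 0.36, 0.07 and -0.14 for ASNS and 0.39, 0.13 and -0.06 for HERPUD1. For PPP1R15A these replicate differences were -0.63 in BCL2L11, -0.58 in TRIM9 and 0.52 in GFP, and for DDIT4 they were -0.16, -0.15 and 1.196 in the same order. Whether this opposite pattern exceeds chance was not tested.

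**Figure D4:**
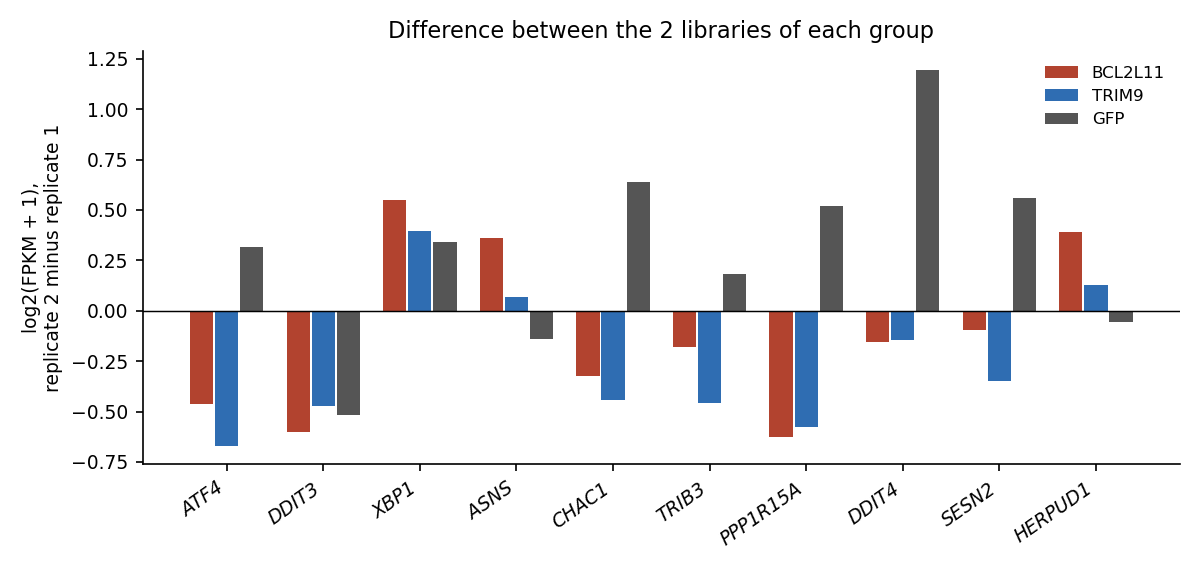
Difference in log2(FPKM + 1) between the 2 libraries of a group, replicate 2 minus replicate 1, with a bar for each group. DDIT3 is negative and XBP1 positive in all 3 groups, while for the other 8 members the GFP bar points the other way from both trigger bars. For ATF4 the GFP bar turns when its model of 180 bases is left out.

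In the other pathway lists 35 genes were called along the same split. The shares by list ran from 23.1% (synthetase list) to 55.6% (further targets), on both sides of the 32.9% of all genes. PPP1R15B, the constitutive counterpart of PPP1R15A in dephosphorylating eIF2, was higher in numbers 4 to 6 by 1.21 on the log2 scale (SE 0.14, adjusted p = 0.0111 in limma), at 14.6, 16.1 and 18.9 FPKM (BCL2L11, TRIM9 and GFP) beside 5.14, 6.02 and 8.92. The protease MBTPS2, which releases ATF6, was higher by 1.23, the degradation genes EDEM3 and SEL1L by 1.24 and 1.22, and the cystine transporter SLC7A11 by 1.07. CRELD2, an ER stress target, was lower, by a log2 difference of -0.85 (SE 0.14). By list, 6 of 17 sensors and eIF2 regulators, 7 of 18 amino acid genes, 3 of 13 genes of the synthetase list, 5 of 9 further targets, 6 of 18 chaperones and 6 of 11 degradation genes were called, beside 32.9% of all genes. Of the partner factors 2 of 8 were called, ATF2 and CREB3L2, and ATF3 was not among them. These 35 pathway genes became 60 without GFP replicate 1 or GFP replicate 2, 9 and 12 without BCL2L11 replicate 1 or 2, and 12 and 11 without TRIM9 replicate 1 or 2.

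The authors' deposited tables, named by trigger and taken here as comparisons with GFP, each listed 8 of the 10 members, without CHAC1 and TRIB3. Their headers do not state which group is on top, so every comparison of signs below assumes that it is the trigger group. A q-value under 0.05 was given to 0 members by the authors' deposited tables. The lowest p of a member in the authors' deposited tables was 0.0469, for HERPUD1 with BCL2L11 (log2 fold change -0.65, q = 1.0), where the sum over models gave -0.18. With TRIM9 the authors' deposited table gave HERPUD1 -0.78, while the sum over models gave 0.06, of the opposite sign. Signs also differed with BCL2L11 for ATF4, at -0.07 in the authors' deposited table and 0.18 in the sum, and for SESN2, at 0.01 in the authors' deposited table and -0.24 in the sum. DDIT4 had log2 fold changes of 1.003 for BCL2L11 and 1.06 for TRIM9 in the authors' deposited tables, larger than the 0.46 and 0.83 of the summed FPKM. DDIT3 had -0.63 and -0.91 in the authors' deposited tables, beside -0.28 and -0.67.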

How the data were processed

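Poly-A RNA of 6 HEK293T libraries and small RNA of 6 more were measured, 2 per group. Per the submitters' processing notes the tools were StringTie 2.1.3, STAR, cutadapt 3.4 and DESeq2 1.20.0, and the genome was hg38. Per the file headers, the deposited transcript tables hold FPKM and the coverage signal (reads per base) of each model. A deposited table gave read counts per mature miRNA, not normalised. The authors' deposited gene tables hold p-values, q-values and fold changes, as a ratio and as log2, with no tool named.

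From these, FPKM was summed over the models of a gene ID. Genes that reached an FPKM of 1 in 2 or more libraries were fitted as log2(FPKM + 1) in limma 3.58.1 (R 4.3.3, eBayes with trend, group only, all 6 libraries in 1 fit). The fit was also run on simulated data, in which each library was drawn independently. That simulation lacked the replicate differences that the groups share here, so it does not show how the test behaves with them. Adjustment was Benjamini-Hochberg, two-sided, threshold 0.05. Gene counts were not used here, so no count test was run. The FPKM scale implies 4109.7 to 5339.6 Mb of aligned bases per library. FPKM is relative to each library's total, so a change in a few abundant RNAs moves all other values. miRNA counts were divided by library totals of 5018875 to 6091151. Motifs were matched in RefSeq promoter windows. The members, lists and tests were chosen with earlier results of these data known. Named are all members and, from each list, genes of highest mean FPKM, the 2 of lowest p per comparison or those called, of which fewer are printed. HSPA5, MANF, BBC3, GDF15, CEBPB, ERN1, EIF2S1 and SELENOS come under that rule. Alternatives were TMM (edgeR 4.0.16), a pseudocount of 0.1, no trend, no filter, a filter of 5, a block for the title sets, a fit of the compared groups alone, the top transcript, models of at least 200 bases and leaving out each library.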

Additional observations from a re-analysis of the deposited data

How the results depend on the processing

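Over 450 settings of a member in a comparison of the groups, 426 kept the sign, 24 turned it and 0 passed the threshold. Part of the kept signs was fixed beforehand, because some settings leave the estimate unchanged and can move only its error. These were no trend, no filter, a filter of 5, the title-set block, the compared groups alone and leaving out libraries outside the comparison. Using the transcript of highest mean turned the log2 difference to -0.57 (ATF4), 0.25 (DDIT3) and 0.27 (XBP1) for BCL2L11 against GFP, to -0.27 (ATF4), 0.018 (TRIB3) and -2.35 (HERPUD1) for TRIM9 against GFP, to 0.81 for HERPUD1 between the triggers and to -0.18 for XBP1 between the title sets. TMM turned TRIB3 to 0.057 for TRIM9 against GFP. Leaving out each library in turn, values for BCL2L11 against GFP ranged from -0.051 to 0.41 (ATF4), -0.58 to 0.020 (DDIT3), -0.14 to 1.06 (DDIT4), -0.52 to 0.038 (SESN2), -0.25 to 0.38 (PPP1R15A), -0.54 to 0.0081 (XBP1) and -0.38 to 0.011 (HERPUD1). For TRIM9 against GFP the ranges were -0.24 to 0.22 (TRIB3) and -0.0059 to 0.12 (HERPUD1), and between the triggers -0.51 to 0.16 (ATF4), -0.29 to 0.15 (CHAC1) and -0.43 to 0.027 (TRIB3). All genes called for TRIM9 against GFP were 1 as reported, 1 to 5 without a library (5 without BCL2L11 replicate 1 or 2), and 4 with the compared groups alone. The cause of these changes was not tested.

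For the title sets, no filter left 0 genes, 0 members and 0 pathway genes called, and the top transcript left 0 members. The call of DDIT3 was lost with no filter (adjusted p = 0.0758 in limma) and with the top transcript (0.0632). Without each library 1265 to 8178 genes, 0 to 5 members and 9 to 60 pathway genes were called. With a term for the title sets as a replicate block, 6 genes were called for TRIM9 against GFP, 1 for BCL2L11 against GFP and 3 between the triggers, with 0 members in each and a lowest member adjusted p of 0.765 (DDIT3, TRIM9 against GFP, limma). Deviations from the group means correlated across genes at 0.58 (BCL2L11 and GFP), 0.49 (TRIM9 and GFP) and 0.83 (BCL2L11 and TRIM9), a hint from the data and not the design, since the labels give no pairing. Searching the given strand alone left 1 member with the C/EBP-ATF element, in place of 3. CHAC1 had the lowest coverage of the members, and what depth adds to its error was not tested.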
